A study of Mus musculus with 11 samples.

Results

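The 33 genes described here are markers of astrocytes and genes of astrocyte metabolism, named by their symbols and each read by its probe set of highest mean level. All 33 were found among the 19938 genes named on the array, and all 33 passed the filter on dim genes that left 11963 genes for the test. They were measured in nucleus accumbens enriched in its shell, punched from the brains of 5 Rarb-null mice and 6 wild-type (WT) littermates. Rarb-null mice lack the gene of retinoic acid receptor beta, as a null mutation that the labels tie to no cell type or age. All mice were behaviourally naive males of 4 to 5 months, bred from heterozygous crosses on a mixed background of C57BL/6J and 129SvEms/j, and each array held the RNA of 1 mouse. Every value is a log2 expression level after robust multi-array analysis (RMA), a difference is the Rarb-null mean minus the WT mean, and SE is that of the limma fit. One protocol text swaps the sizes of the 2 groups, but Rarb stood between 9.72 and 10.01 in the arrays titled null and between 11.70 and 11.81 in those titled WT.

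Astrocytes are the glial cells that clear glutamate and potassium from around synapses, turn glutamate into glutamine, make and store glycogen, and line blood vessels with end feet. They are joined by gap junctions, and their defining proteins are transporters, channels and metabolic enzymes. Retinoic acid receptors are transcription factors that bind DNA with retinoid X receptors. In the striatum, retinoic acid receptor beta is best known for its role in projection neurons. A punch holds all cells of the tissue, so fewer astrocytes and less RNA per astrocyte cannot be told apart in these data.

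Astrocyte genes were lower in the Rarb-null accumbens. Of the 33, 17 fell and 1 rose past a limma Benjamini-Hochberg adjusted p of 0.05, where 12% of all tested genes fell and 7.56% rose (19.6% in either direction). The differences were below 0 for 32 of the 33, against 57.2% of all tested genes. The median difference was -0.15, against -0.02 over all tested genes, so the shifts were small for most members. Slc4a4, a sodium bicarbonate cotransporter gene, had the largest fall at 0.51, which is 1.43-fold. Slc7a11, the cystine-glutamate exchanger gene, rose by 0.29. For 12 of the 33 genes every Rarb-null array lay below every WT array, as for 7.33% of all tested genes, and these 12 were among the 17. The plot of differences with their intervals shows the 33 genes by role.

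**Figure D1:**
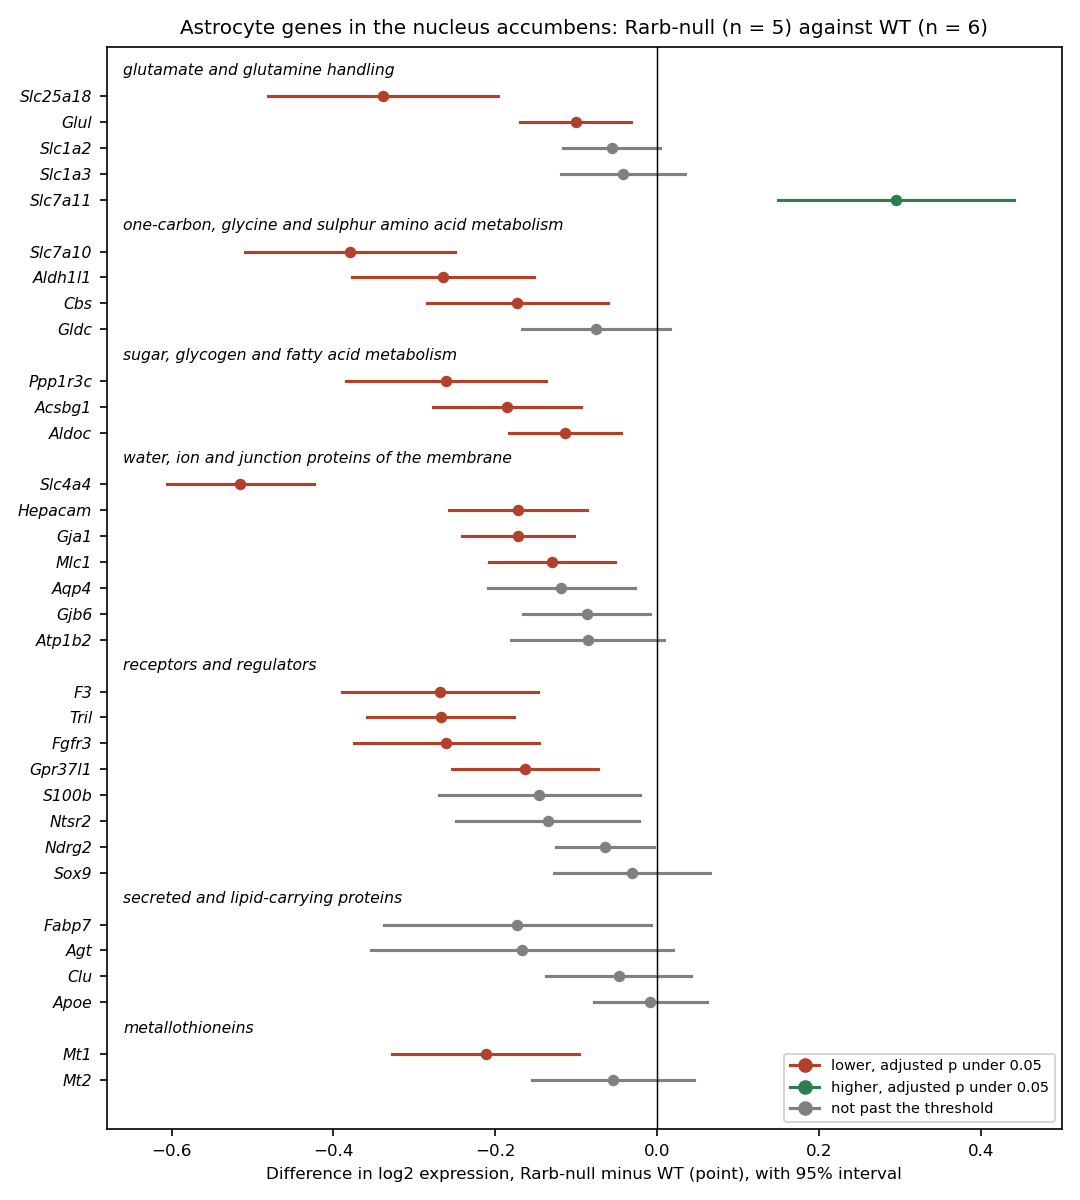
Difference in log2 expression, Rarb-null minus WT, for each of the 33 astrocyte genes, grouped by role; points are limma estimates and lines their 95% intervals (5 Rarb-null and 6 WT arrays). Points lie left of 0 for 32 genes, from -0.51 for Slc4a4 to -0.01 for Apoe, and Slc7a11 alone lies to the right, at 0.29.

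The members' mean level ran from 10.29 to 10.35 in Rarb-null arrays and from 10.42 to 10.52 in WT arrays, so the ranges of the genotypes did not overlap. WT replicates 1 and 6 were the lowest WT arrays, being lowest for 11 and 14 of the 33 genes. Within genotypes the genes moved together only loosely. After each genotype's mean was taken off, the median Pearson correlation across the 11 arrays was 0.16 over the 528 pairs of members and 0.08 over all pairs of tested genes. The correlation exceeded 0.5 in 24.1% of member pairs, against 14.3% of all pairs, and was below -0.5 in 6.44%, against 8.36%. Slc4a4, Gja1 and Gjb6 had median correlations to the other members of -0.27, -0.28 and -0.25, and the highest such median was 0.56, for Acsbg1. These are descriptions, since all genes share the same punches and normalisation.

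**Figure D2:**
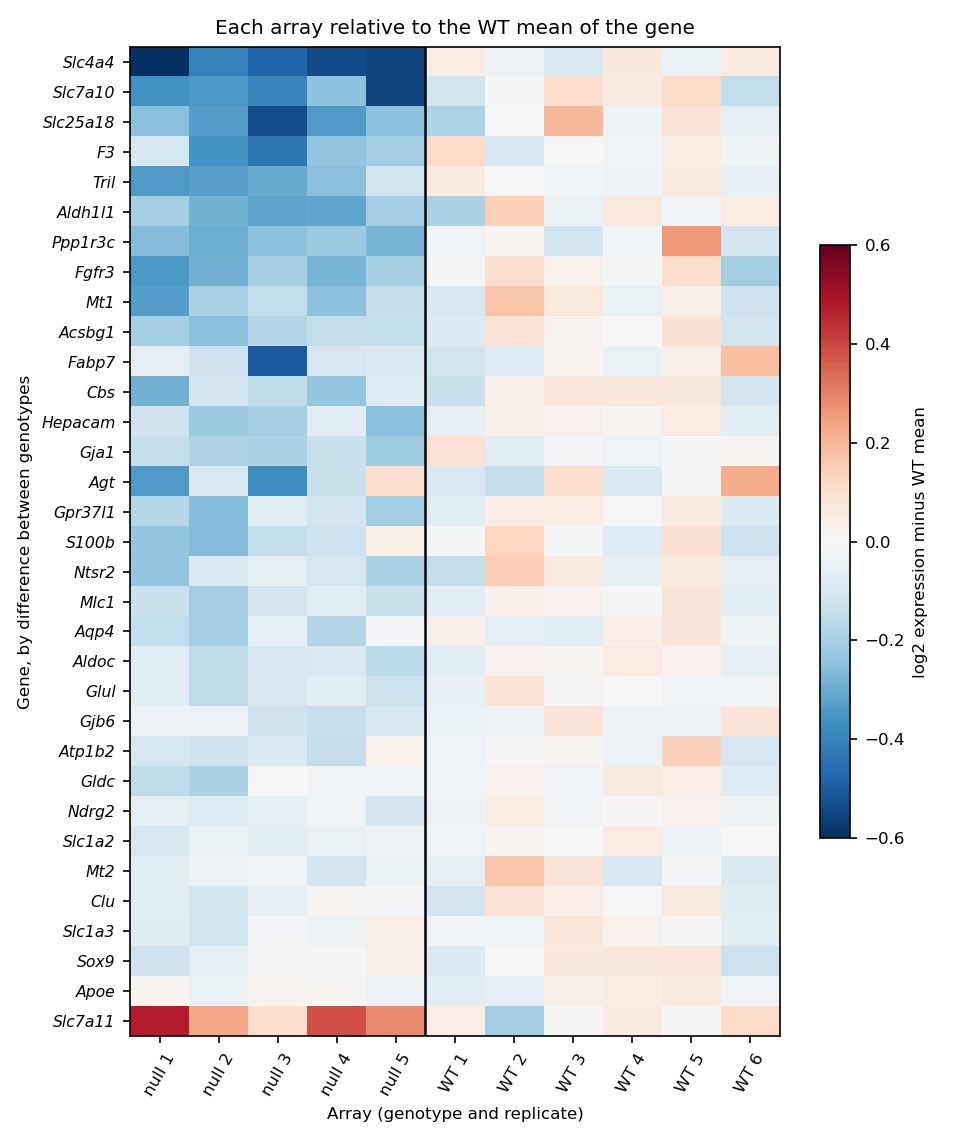
Log2 expression of each of the 33 genes in each array minus the gene's WT mean, with the 5 Rarb-null arrays left of the line and the 6 WT arrays right of it; blue is below and red above the WT mean. Most rows are blue across the Rarb-null arrays, darkest for Slc4a4, and the Slc7a11 row at the bottom is red.

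The genes that carry water, ions and small molecules across the astrocyte membrane held the largest fall. Slc4a4 brings bicarbonate into astrocytes with sodium and so buffers pH. It read 10.56, 10.76, 10.68, 10.63 and 10.62 in the 5 Rarb-null arrays and 11.07 to 11.23 in the 6 WT arrays, with a WT median of 11.17. The Rarb-null arrays thus all lay well below the WT arrays. Slc4a4 fell by 0.51 (SE 0.042; adjusted p = 2.8e-06 by limma with Benjamini-Hochberg correction). The exact permutation p (two-sided) was 0.00216, the smallest that 5 and 6 arrays allow. It stayed between -0.54 and -0.47 in all 23 alternative analyses.

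The start regions of the genes were read for letters that retinoic acid receptors are known to bind, because the members differ between mice with and without such a receptor. RefSeq (GRCm38.p6) gave start sites for 29 of the 33 genes, and the 250 bases before each were searched on both strands. The hexamer AGGTCA was found for 5 of the 29 genes, 3 of them among the 17 that fell, and the others were Fabp7 and Ndrg2. It was found for 12.8% of the 9570 tested genes with a start region, and in 14.0% of all 32851 start regions of that length. Direct repeats of AGGTCA or GGGTCA or AGTTCA or GGTTCA spaced by 5 or by 2 bases, the arrangement of retinoic acid response elements, were found for 0 of the 29. They were found for 0.0522% and 0.0418% of those tested genes, and in 0.0883% and 0.174% of all regions. A match is not a bound site, and a missing one says only that these letters are not in this window. The regions of the 3 falling genes are given with the hexamer, or its reverse complement TGACCT, in capitals. That of Slc4a4 (chr5:89027716-89027965, plus strand) lies before the downstream of its 2 annotated starts, and the window before its other start held no match. Those of Aldh1l1 (chr6:90550543-90550792, plus strand) and Glul (chr1:153899679-153899928, plus strand) lie before their single starts.
Slc4a4: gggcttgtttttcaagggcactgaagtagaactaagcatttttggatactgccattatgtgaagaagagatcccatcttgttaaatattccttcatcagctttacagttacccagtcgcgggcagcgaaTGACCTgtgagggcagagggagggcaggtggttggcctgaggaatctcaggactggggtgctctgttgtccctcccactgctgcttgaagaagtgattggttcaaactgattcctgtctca
Aldh1l1: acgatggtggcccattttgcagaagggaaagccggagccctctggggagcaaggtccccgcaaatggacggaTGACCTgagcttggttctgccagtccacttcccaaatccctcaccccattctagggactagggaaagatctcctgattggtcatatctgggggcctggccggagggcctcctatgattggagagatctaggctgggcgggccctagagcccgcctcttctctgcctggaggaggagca
Glul: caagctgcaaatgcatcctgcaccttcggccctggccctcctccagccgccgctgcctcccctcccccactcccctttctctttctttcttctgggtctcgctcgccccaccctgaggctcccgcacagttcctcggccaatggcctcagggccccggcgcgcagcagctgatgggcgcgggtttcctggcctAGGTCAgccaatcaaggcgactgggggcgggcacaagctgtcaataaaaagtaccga

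Of the other 6 genes of this group, 3 fell. Gja1, the gene of the main astrocyte gap junction protein connexin 43, read 11.22 to 11.30 in Rarb-null arrays and 11.36 to 11.52 in WT arrays, with a WT median of 11.42. The groups did not overlap, and the difference was -0.17 (SE 0.032, limma adjusted p = 0.00266). Hepacam (-0.17, SE 0.039, limma adjusted p = 0.00922) and Mlc1 (-0.13, SE 0.036, limma adjusted p = 0.0234) encode a pair of membrane proteins that bind each other at astrocyte contacts. Hepacam read 9.79 to 9.98 in Rarb-null and 9.97 to 10.09 in WT arrays, so the groups just overlapped, and Mlc1 read 10.18 to 10.32 in Rarb-null and 10.32 to 10.47 in WT arrays. The call of Mlc1 was lost without Rarb-null replicate 2 (limma adjusted p = 0.058) or WT replicate 5 (limma adjusted p = 0.0504), and with arrays centred (0.0708). Aqp4, the water channel of the end feet, gave -0.12 (limma adjusted p = 0.0638, and 0.0275 without Rarb-null replicate 5). The second astrocyte connexin gene, Gjb6, gave -0.09 (limma adjusted p = 0.108). Atp1b2, a subunit of the sodium pump, also gave -0.09 (limma adjusted p = 0.176). The falls of this group therefore included 1 of its 2 connexin genes, and whether Gja1 and Gjb6 differed from each other was not tested.

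In the handling of glutamate, the genes of a mitochondrial carrier and of the cystine exchanger moved in opposite directions, and those of the uptake transporters did not pass the test. Slc25a18, which encodes a mitochondrial glutamate carrier, read 9.64, 9.56, 9.36, 9.55 and 9.65 in Rarb-null arrays and 9.71 to 10.08 in WT arrays, with a WT median of 9.87. Every Rarb-null array was below every WT array, with Rarb-null replicate 3 the lowest. The difference was -0.34 (SE 0.066, limma adjusted p = 0.00336, exact permutation p = 0.00433).

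Slc7a11 takes up cystine for glutathione synthesis in exchange for glutamate. It read 10.29, 10.04, 9.92, 10.20 and 10.10 in Rarb-null arrays and 9.61 to 9.93 in WT arrays, with a WT median of 9.84. Rarb-null replicate 3 lay just below the highest WT array, so the groups overlapped by that array alone. The difference was 0.29 (SE 0.067, limma adjusted p = 0.00922, exact permutation p = 0.00433). Adjusted for the level of oligodendrocyte markers it was 0.28, with a limma adjusted p of 0.0809.

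Slc7a11, the only member that rose, was read for a different sequence. Its transcription is known to be raised by the stress factor ATF4 through the amino acid response element TGATGCAAA. The element was chosen for this gene, so a match in Slc7a11 was foreseen and says nothing of enrichment. Whether ATF4 had a part in the rise was not tested. These letters were found on either strand for 1 of the 29 genes, Slc7a11. They were found for 0.199% of tested genes with a start region, and in 0.225% of all start regions. The region (chr3:50443614-50443863, minus strand) is given 5′ to 3′ along the gene and holds 2 matches in capitals, of which the second is the reverse complement, starting 66 and 48 bases before the gene's start. The matches describe the sequence and were not tested against expression.
Slc7a11: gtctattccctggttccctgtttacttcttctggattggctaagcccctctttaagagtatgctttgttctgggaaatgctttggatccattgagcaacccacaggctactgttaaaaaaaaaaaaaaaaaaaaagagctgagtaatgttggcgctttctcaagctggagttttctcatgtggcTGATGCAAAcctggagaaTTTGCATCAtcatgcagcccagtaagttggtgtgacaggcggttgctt

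The genes of the glutamate uptake transporters gave -0.06 for Slc1a2 (95% interval of the difference ending at 0.00; limma adjusted p = 0.162) and -0.04 for Slc1a3 (-0.12 to 0.03; limma adjusted p = 0.423). The exact permutation p, not adjusted for the number of genes, was 0.00649 for Slc1a2 and 0.232 for Slc1a3. Glul, the glutamine synthetase gene, read 12.31 to 12.40 in Rarb-null and 12.42 to 12.54 in WT arrays, with a WT median of 12.46. The groups did not overlap, but the difference was only -0.10 (SE 0.032, limma adjusted p = 0.0406). A second probe set of Glul gave -0.09. The call of Glul was lost without Rarb-null replicate 2, 3 or 5 or WT replicate 2, 3, 4, 5 or 6 (limma adjusted p 0.0526 to 0.0918), with no filter on dim genes (0.0638) and with arrays centred on the median of their tested genes (0.189).

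Genes of folate, glycine and sulphur amino acid metabolism fell in 3 of 4 cases. Slc7a10 encodes an exchanger of glycine, serine and other small neutral amino acids. It read 9.45, 9.47, 9.42, 9.57 and 9.26 in Rarb-null arrays and 9.66 to 9.93 in WT arrays, with a WT median of 9.84. No array of the genotypes overlapped, and the difference of -0.38 (SE 0.060, 1.30-fold, limma adjusted p = 0.000821, exact permutation p = 0.00216) was the second largest of the 33. Aldh1l1, the folate enzyme gene widely used to mark astrocytes, read 8.48 to 8.59 in Rarb-null and 8.60 to 8.94 in WT arrays, with a WT median of 8.81. The groups abutted at WT replicate 1 without overlapping, and the difference was -0.26 (SE 0.052, limma adjusted p = 0.0036). Cbs, the cystathionine beta-synthase gene, fell by 0.17 (SE 0.052, limma adjusted p = 0.0338). That call was lost without Rarb-null replicate 1, 3 or 4 or WT replicate 2, 3, 4 or 5 (limma adjusted p 0.0518 to 0.0731) and with arrays centred (0.107). Gldc, a gene of the glycine cleavage system, gave -0.08 (limma adjusted p = 0.215).

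All 3 genes of sugar, glycogen and fatty acid metabolism fell. Ppp1r3c, which encodes a subunit that targets a phosphatase to glycogen, read 8.79 to 8.87 in Rarb-null and 8.98 to 9.35 in WT arrays, with a WT median of 9.07. The groups did not overlap, and WT replicate 5 stood above the other WT arrays. The difference was -0.26 (SE 0.057, limma adjusted p = 0.00734) and -0.21 without that array (limma adjusted p = 0.00202). Acsbg1, the gene of an acyl-CoA synthetase, read 10.34 to 10.44 in Rarb-null and 10.47 to 10.68 in WT arrays (-0.19, SE 0.042, limma adjusted p = 0.00913). Aldoc, the brain aldolase gene of glycolysis, read 12.85 to 12.94 in Rarb-null and 12.95 to 13.06 in WT arrays. Its groups too did not overlap, at a difference of -0.11 (SE 0.032, limma adjusted p = 0.0265). The call of Aldoc was lost without Rarb-null replicate 2 or 5 or WT replicate 4 or 5 (limma adjusted p 0.0555 to 0.0608) and with arrays centred (0.123).

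Among receptors and regulators, 4 of 8 genes fell. Tril, which encodes an accessory protein of Toll-like receptor signalling, read 8.35, 8.37, 8.39, 8.44 and 8.57 in Rarb-null arrays and 8.63 to 8.75 in WT arrays, with a WT median of 8.68. All Rarb-null arrays were below all WT arrays, and the difference was -0.27 (SE 0.042, limma adjusted p = 0.000758). Fgfr3, a fibroblast growth factor receptor gene, read 9.16 to 9.30 in Rarb-null and 9.29 to 9.61 in WT arrays, with a WT median of 9.51. WT replicate 6, at 9.29, was the only WT array within the Rarb-null range, and the difference was -0.26 (SE 0.053, limma adjusted p = 0.00438). F3, the tissue factor gene of blood clotting, fell by 0.27 (SE 0.056, limma adjusted p = 0.00544; 8.72 to 9.04 in Rarb-null and 9.04 to 9.26 in WT arrays). Gpr37l1, an orphan receptor gene of glia, fell by 0.16 (SE 0.042, limma adjusted p = 0.0163), with a limma adjusted p of 0.05005 when arrays were centred.

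The other 4 genes of this group did not pass. The neurotensin receptor gene Ntsr2 gave -0.14 (limma adjusted p = 0.0851, and 0.0426 without WT replicate 1), and S100b, a calcium-binding protein gene, gave -0.15 (limma adjusted p = 0.09, 0.0255 without Rarb-null replicate 5 and 0.0122 when cortical markers were adjusted for). Ndrg2 gave -0.06 (limma adjusted p = 0.122, exact permutation p = 0.00649). It was called with cyclic loess normalisation (limma adjusted p = 0.0445) and with a trended robust variance (limma adjusted p = 0.0376). Sox9, a transcription factor gene of the astrocyte lineage, gave -0.03 (interval -0.13 to 0.07; limma adjusted p = 0.651), and 0.0087 with arrays centred.

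None of the 4 genes of secreted and lipid-carrying proteins passed the limma test. An unadjusted limma p under 0.05 was met by 1 of the 4, and by 4220 of the 11963 tested genes. Apoe, the main lipid carrier of the brain, read 12.81 to 12.87 in Rarb-null and 12.79 to 12.91 in WT arrays, so the Rarb-null arrays lay inside the WT range. Its difference was -0.01 (interval -0.08 to 0.06; limma adjusted p = 0.879). Clu, which encodes the chaperone clusterin, gave -0.05 (limma adjusted p = 0.437), and Agt, the angiotensin precursor gene, -0.17 (limma adjusted p = 0.184). Fabp7, the fatty acid-binding protein of astrocytes and radial glia, gave -0.17 (limma adjusted p = 0.126). It read 11.47 in Rarb-null replicate 3, 11.85 to 11.92 in the other Rarb-null arrays and 11.85 to 12.15 in WT arrays.

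The metallothioneins are small proteins that bind zinc and copper. Mt1 read 11.29, 11.42, 11.47, 11.37 and 11.47 in Rarb-null arrays and 11.49 to 11.78 in WT arrays, with a WT median of 11.61. The groups did not overlap, and Mt1 fell by 0.21 (SE 0.054, limma adjusted p = 0.0159; 0.0525 with arrays centred). Mt2 read 12.39 to 12.47 in Rarb-null and 12.40 to 12.66 in WT arrays, so the groups overlapped in part. Its difference was -0.05 (limma adjusted p = 0.422). WT replicate 2 was the highest array for both genes.

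**Figure D3:**
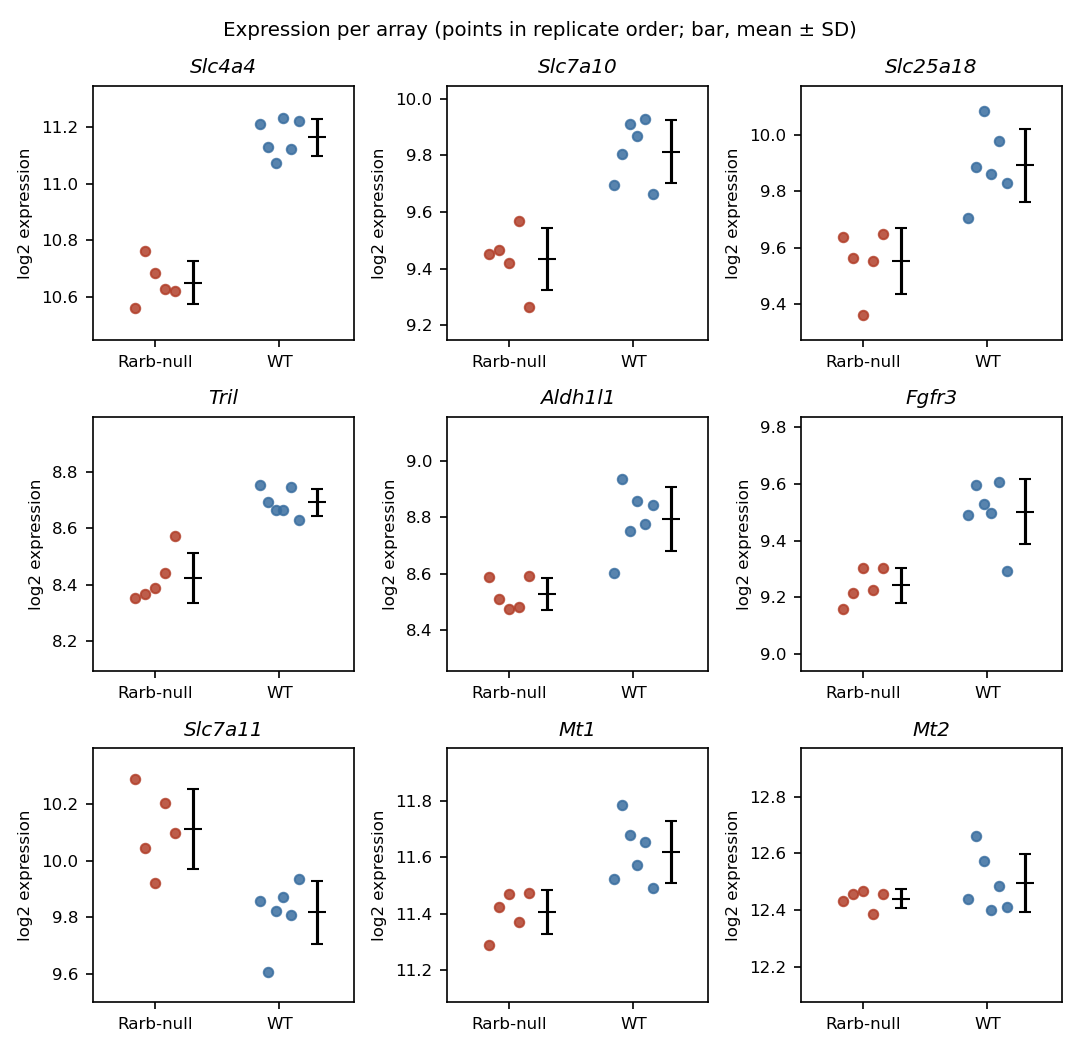
Log2 expression per array for 9 astrocyte genes, Rarb-null left (red) and WT right (blue); bars are means ± SD (n = 5 and 6), and every panel spans the same range of log2 units. Slc4a4, Slc7a10, Slc25a18, Tril, Aldh1l1 and Mt1 do not overlap between genotypes, Fgfr3 and Slc7a11 do so by 1 array, and the groups of Mt2 overlap in part.

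How firmly the calls held differed between genes. Slc25a18, Aldh1l1, Slc7a10, Slc4a4, Fgfr3 and Tril passed in all 23 alternative analyses at the 0.05 threshold, and none of the 18 called genes changed sign in any. All 6 were also called, as were F3, Gja1, Ppp1r3c and Slc7a11, when the 3 arrays of extreme cortical marker level (WT replicates 3 and 4 and Rarb-null replicate 5) were left out. In that analysis 10 of the 33 fell, which included S100b (limma adjusted p = 0.0468), where 7.31% of all tested genes did. When every array was shifted to a common median over the tested genes, 11 of the 33 fell, against 7.85% of all tested genes. The split of all calls moved with this scaling, to 1677 higher and 939 lower, against 905 higher and 1436 lower on the deposited scale, and the members' median difference became -0.11. After repeated quantile normalisation 16 members fell, against 10.8% of all tested genes, and the members' median difference was -0.12. At an adjusted p of 0.01, 11 members fell, against 5.32% of all tested genes. Without 1 array at a time, 13 to 18 members fell and 1 rose, while 8.05% to 13.1% of all tested genes fell.

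The members were among the brighter genes, so the tested genes were also split into 5 bands of equal size by mean level, band 5 being the brightest. Band 5 held 17 members, of which 8 fell with a median of -0.11 over the 17, while 12.8% of all genes in that band fell and their median was -0.02. In band 4 there were 4 falls among 7 members, against 13.5% of all its genes. In band 3 there were 3 among 4, against 15.2%. In band 2 there were 2 among 5, against 12.1%. Band 1 held no member, and there 6.35% of all genes fell and 12.9% rose. Gfap, Emx1, Fezf2 and Ccdc153, whose rises are given below, lay in band 1.

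Markers of other cells moved in the same arrays. Cortical neuron markers (5 tested; Neurod6 was below the filter) averaged 8.59 to 9.30 in Rarb-null arrays and 7.84 to 8.79 in WT arrays, and 2 of the 5, Emx1 (0.22) and Fezf2 (0.41), rose. All 5 had an unadjusted p under 0.05, and the largest differences belonged to Tbr1 (0.95, limma adjusted p = 0.0698) and Slc17a7 (0.90, limma adjusted p = 0.0639). Oligodendrocyte markers averaged 9.37 to 9.61 in Rarb-null and 9.52 to 9.75 in WT arrays, and 4 of 10 fell, led by Opalin (-0.35). Adjusted for the level of cortical markers, 11 members fell and 1 rose, against 6.49% and 3.23% of all tested genes, and the members' median was -0.16. Adjusted for that of oligodendrocyte markers, 13 fell and 0 rose, against 6.04% and 2.57%, with a median of -0.17. The part of these cells in the members' differences was not tested further. Markers of oligodendrocyte precursors (6 tested), microglia (6) and endothelial and mural cells (10) gave no call by limma, with 1, 3 and 1 genes at an unadjusted p under 0.05. Such an unadjusted limma p was met by 4220 of all 11963 tested genes.

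**Figure D4:**
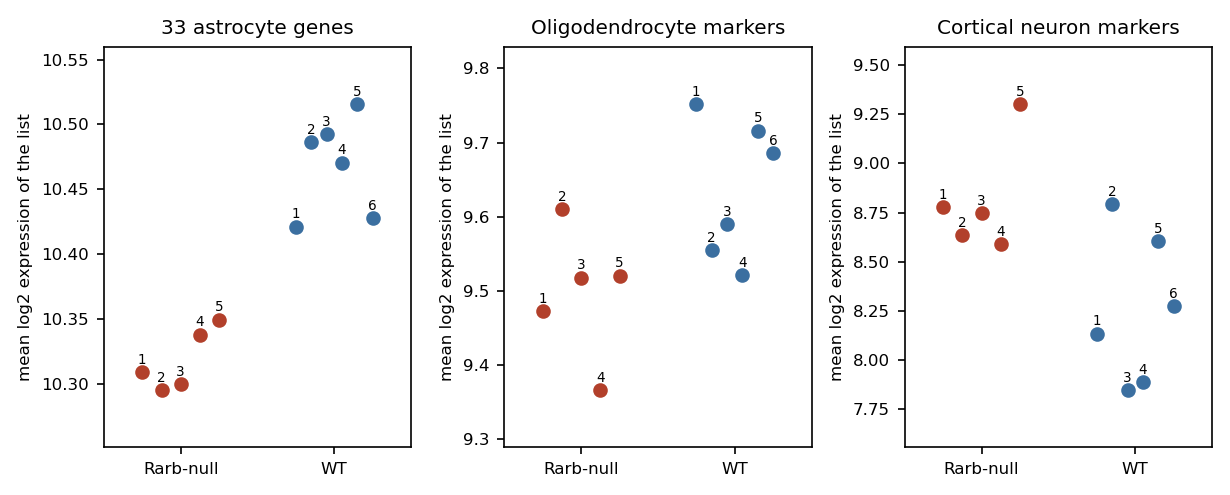
Mean log2 level per array of the 33 astrocyte genes (left), the oligodendrocyte markers (middle) and the cortical neuron markers (right), with Rarb-null left and WT right in each panel; numbers are replicates and the vertical scales differ. The Rarb-null and WT ranges are apart for the astrocyte genes and overlap for both other lists. Those of the striatal projection neuron markers, not drawn here, were also apart (11.81 to 11.93 in Rarb-null and 12.09 to 12.15 in WT arrays).

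Neurons stood as follows. Of 8 tested striatal projection neuron markers 5 fell, with Tac1 at -0.39, Rgs9 at -0.42, Pde10a at -0.42 and Drd2 at -0.31, and their mean level was 11.81 to 11.93 in Rarb-null and 12.09 to 12.15 in WT arrays. Of 6 genes of all neurons 1 fell (Tubb3, -0.12), and their mean level was 11.99 to 12.05 in Rarb-null and 11.98 to 12.08 in WT arrays. Of the ependyma and choroid plexus markers, 4 of 6 were below the filter, among them Ttr at 5.27 ± 0.13 in Rarb-null and 5.02 ± 0.14 in WT arrays (SD). Kl (-0.41) fell and Ccdc153 (0.19) rose.

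Further astrocyte genes, outside the 33, gave a like count. Of 36 tested, 19 fell and 2 rose, with a median of -0.12, and their mean level did not overlap between genotypes (9.48 to 9.59 in Rarb-null and 9.60 to 9.71 in WT arrays). The smallest p belonged to Pla2g7 (-0.29, SE 0.030, limma adjusted p = 2.58e-05), a lipase gene of astrocytes in mouse brain, and Slc39a12 (-0.32, SE 0.040, limma adjusted p = 0.000119), a zinc transporter gene. Kcnj10, the potassium channel that clears potassium, fell by 0.35 (SE 0.046, limma adjusted p = 0.000193), and the endothelin receptor gene Ednrb by 0.27 (SE 0.043, limma adjusted p = 0.000714). Each of these 4 was called in all 23 alternatives. Leaving out 1 array at a time gave 14 to 19 falls and 0 to 2 rises, and leaving out the 3 arrays of extreme cortical marker level gave 13 and 0. There were 11 falls and 0 rises after adjustment for oligodendrocyte markers, 14 and 1 after adjustment for cortical markers, and 12 and 0 at an adjusted p of 0.01. The shares of all tested genes that fell in these settings are given above.

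The 2 that rose were Gfap and Vim, the intermediate filament genes of astrocytes, which are also the classic genes of reactive astrocytes. Gfap averaged 7.83 ± 0.12 in Rarb-null and 7.56 ± 0.19 in WT arrays (SD; 0.27, SE 0.085, limma adjusted p = 0.0392), and Vim 10.30 ± 0.11 in Rarb-null and 10.09 ± 0.12 in WT arrays (0.21, SE 0.063, limma adjusted p = 0.035). The genotypes overlapped for both. Adjusted for the level of cortical markers, neither passed (Gfap 0.07, limma adjusted p = 0.617; Vim 0.14, limma adjusted p = 0.302). Nor did either pass when oligodendrocyte markers were adjusted for (limma adjusted p 0.0706 for Gfap and 0.258 for Vim) or when the 3 arrays of extreme cortical marker level were left out (0.243 for Gfap and 0.0999 for Vim). The call of Gfap was lost without any array but Rarb-null replicate 1 and WT replicates 2 and 5 (limma adjusted p 0.0537 to 0.0891), with no filter on dim genes (0.0512) and after repeated quantile normalisation (0.0511). That of Vim was lost without Rarb-null replicate 1, 3 or 4 or WT replicate 1, 4 or 6 (0.0511 to 0.0748). The other 4 tested reactive genes, with Serpina3n at -0.16 and Cp at -0.06 of smallest p, did not pass. Below the filter were 7 of the 13, Lcn2 and Cxcl10 among them. Each of these 7 averaged higher in Rarb-null arrays, Lcn2 at 6.20 ± 0.10 against 5.99 ± 0.07 in WT arrays (SD). With no filter on dim genes the median difference of the 13 was 0.09, against 0.02 over all genes.

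**Figure D5:**
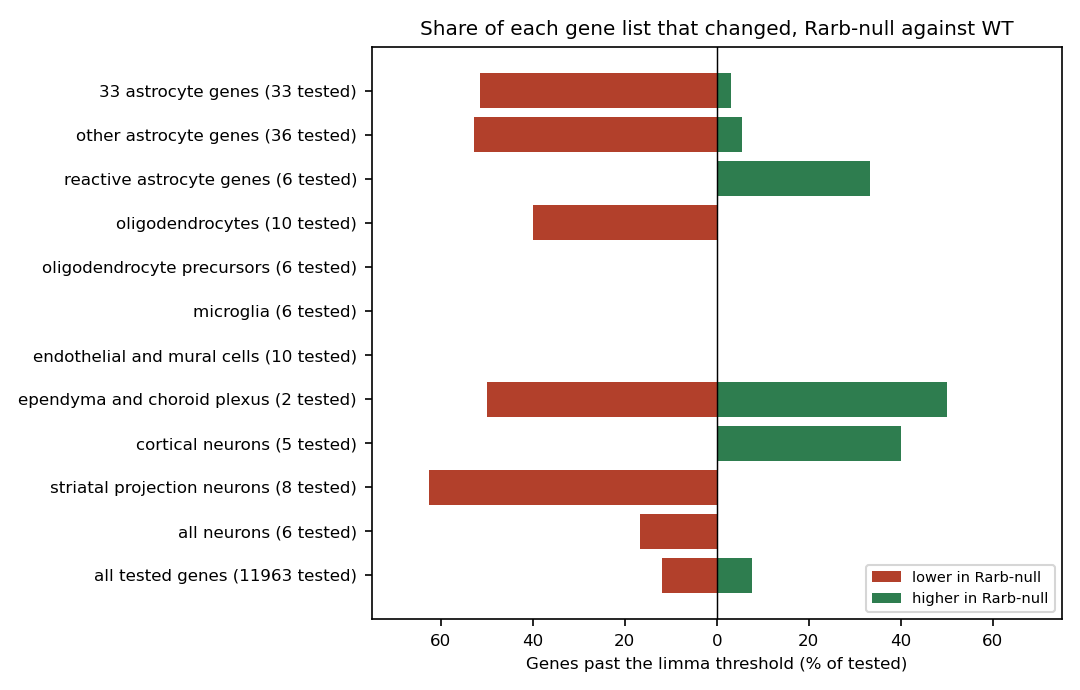
Percent of the tested genes of each list past a limma adjusted p of 0.05, lower in Rarb-null drawn to the left and higher to the right, with all 11963 tested genes at the bottom. The 33 astrocyte genes (51.5% lower, 3.03% higher) and the further astrocyte genes (52.8% and 5.56%) stand beside 12% and 7.56% of all tested genes; lists of under 10 genes move in large steps.

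Rarb lies on chromosome 14, where alleles of the strain in which a null mutation was made can be inherited along with it. Of the 33 genes, 3 lie on chromosome 14, Ndrg2, Gjb6 and Clu, at 340 or more protein-coding genes from Rarb. None of the 3 passed the limma test. The unadjusted limma p was under 0.05 for Gjb6 and Ndrg2, as for 4220 of the 11963 tested genes. The 18 called genes lie on other chromosomes, and whether linked alleles act on them was not tested.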

How the data were processed

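The authors deposited log2-scale expression values after robust multi-array analysis (RMA) for 11 Affymetrix Mouse Gene 1.0 ST arrays, as the labels and the submitters' processing notes state; that the log is to base 2 was inferred from the range. RMA subtracts background, normalises quantiles and summarises probes. Folds of dim and very bright probe sets can be compressed in array values of this kind. Software version and probe annotation are not given in the sources used here, and no background signal or scan date was used. Per the labels' protocols, bilateral punches of 0.5 mm from sections of 300 µm gave 100 ng of total RNA per mouse. The number of arrays limits the precision, and array medians over all probe sets still differed slightly (7.08 to 7.11 in Rarb-null, 7.02 to 7.06 in WT arrays). Centring used the median of the tested genes instead, and moved the median difference over all tested genes from -0.02 to 0.02. The spread of values also differed, with interquartile ranges of 3.3777 to 3.4859 in Rarb-null and 3.4876 to 3.5545 in WT arrays.

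Of 35556 probe sets, 21789 had 1 symbol in the platform annotation (updated through Entrez identifiers), 1621 had several and 12146 were not named in it. Each gene took its probe set of highest mean, and genes above the 40th percentile (log2 6.99) were tested with limma 3.58.1 in R 4.3.3 (lmFit, eBayes, no covariate, Benjamini-Hochberg over 11963 genes). Single genes were checked with a two-sided exact permutation test, and the procedure was tested on simulated data. Start regions are RefSeq's, of GRCm38.p6. The members, lists, rules and alternatives were chosen with earlier results of these data known. All members are named, in full those called and, in each role group, the one of smallest p; of other lists, up to 4 genes of smallest p. Gfap, Vim and the genes among the other observations were named after their values were seen, as were Neurod6, Ttr, Lcn2 and Cxcl10. Plots used matplotlib 3.10.9 (Python 3.11.15).

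Alternatives were other filters on dim genes, arrays centred on the median of their tested genes, and repeated quantile and cyclic loess normalisation. Further ones were array weights, a trended robust variance, averaging a gene's probe sets, a replicate block and oligodendrocyte or cortical marker covariates. The last were a threshold of 0.01 and leaving out arrays.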

Additional observations from a re-analysis of the deposited data

Results flagged for a closer look

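In 3 of 66 groups of arrays (33 genes in each genotype), 1 array stood apart from the others by Dixon's criterion, which chance meets in about 1 group in 20. WT replicate 5 read 9.35 for Ppp1r3c, where the rest of the WT arrays read 8.98 to 9.10, and its difference without that array was -0.21 (limma adjusted p = 0.00202). WT replicate 6 read 9.29 for Fgfr3, where the rest of the WT arrays read 9.49 to 9.61; without that array its difference was -0.30 (limma adjusted p = 0.000271). Fabp7 read 11.47 in Rarb-null replicate 3 and 11.85 to 11.92 in the other Rarb-null arrays, and without it the difference was -0.09 (limma adjusted p = 0.259), against -0.17 with all arrays.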

How the results depend on the processing

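Of all genes, 2341 were called, against 1029 with the oligodendrocyte covariate, 1162 with the cortical covariate, 1347 when the 3 arrays with extreme cortical markers were left out and 970 at the 0.01 threshold; leaving out 1 array at a time gave 1547 (without Rarb-null replicate 3) to 2576. Members that fell numbered 17, and 11 with arrays centred, 11 with the cortical covariate, 11 at the 0.01 threshold, 10 without those 3 arrays and 13 to 18 without 1 array. Slc7a11 rose in each of these but not with the oligodendrocyte covariate, where 0 members rose. The members' median was -0.15, -0.11 with arrays centred and -0.16 to -0.12 without 1 array. Apoe turned to 0.032 with arrays centred, 0.017 with the cortical covariate, 0.019 without the 3 arrays, 0.0009 without WT replicate 4 and 0.003 without WT replicate 5 (range -0.021 to 0.003 without 1 array), and Sox9 to 0.0087 with arrays centred; neither was called. The cause of these shifts was not tested. Other member calls lost were F3 (limma adjusted p = 0.0563), Ppp1r3c (0.0784), Mt1 (0.064) and Cbs (0.111) with the oligodendrocyte covariate, and Gja1 (0.0624), Hepacam (0.0868), Mlc1 (0.0722), Gpr37l1 (0.088), Aldoc (0.158), Glul (0.125) and Cbs (0.093) with the cortical one, while S100b was gained (0.0122). Without those 3 arrays Acsbg1 (0.0551), Mt1 (0.0589), Hepacam (0.0824), Cbs (0.106), Mlc1 (0.115), Gpr37l1 (0.117), Aldoc (0.173) and Glul (0.173) were lost and S100b (0.0468) gained. Cbs was lost after repeated quantile normalisation (0.0608), and Aqp4 was gained with array weights (0.0354). Replicate numbers are shared between genotypes. Same-numbered arrays deviated together with correlations of 0.06 to 0.43, 1 of the 5 being under 0.1, and 2 of 5 Rarb-null arrays matched their own number best. The main fit did not pair arrays by number, and whether the numbers mark a shared litter or batch was not tested. A replicate block gave 2872 called genes, against 1948 with no block when WT replicate 6 was left out. With the replicate block 20 members fell, against 15.0% of all genes, 1 rose and the median was -0.14; WT replicate 6, alone with its number, adds nothing to that fit. There Glul (0.0739) and Vim (0.0907) were lost, and Aqp4 (0.047), Atp1b2 (0.0296), Ntsr2 (0.0282) and S100b (0.0395) were gained, and all 5 cortical markers rose. Signal over background could not be measured, so no limit can be set for dim genes.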

Other observations

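The following genes are among the further astrocyte genes and were picked after their values were seen. Slc6a11, the GABA transporter of astrocytes, fell by 0.30 (SE 0.049, limma adjusted p = 0.00111; 10.54 to 10.79 in Rarb-null and 10.81 to 11.01 in WT arrays). Slc6a9, a glycine transporter gene, fell by 0.26 (SE 0.053, limma adjusted p = 0.00492), so a glycine carrier fell beside the exchanger gene Slc7a10; with the oligodendrocyte covariate the call of Slc6a9 was lost (limma adjusted p = 0.0538). Of genes that act in glycogen breakdown, the phosphorylase Pygm fell by 0.20 (SE 0.039, limma adjusted p = 0.00376), and the brain phosphorylase Pygb gave -0.08 (limma adjusted p = 0.114). Phkg1, which encodes a catalytic subunit of phosphorylase kinase, fell by 0.19 (SE 0.056, limma adjusted p = 0.0322), a call lost with arrays centred (0.0741), with the oligodendrocyte covariate (0.16), and without Rarb-null replicate 1, 2, 3 or 4 or WT replicate 2, 4, 5 or 6 (0.0507 to 0.0729). Whether Pygm and Pygb differ was not tested.

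The third brain metallothionein gene, Mt3, fell by 0.12 (SE 0.038, limma adjusted p = 0.0377), a call lost without Rarb-null replicate 1, 3 or 4 or WT replicate 2, 3, 4 or 5 (limma adjusted p 0.0516 to 0.094). It was also lost with arrays centred (0.17), with no filter on dim genes (0.0563), after quantile (0.0749) or cyclic loess (0.0601) normalisation, with the oligodendrocyte (0.192) or cortical (0.0686) covariate and without the 3 arrays of extreme cortical markers (0.0922). It stands between Mt1 (-0.21) and Mt2 (-0.05). Mfge8, which encodes a secreted protein that tags cells for uptake, fell by 0.34 (SE 0.057, limma adjusted p = 0.00117), close to the fall of Kcnj10 (0.35), and both were called in every alternative at the 0.05 threshold.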
